A study of Capsicum chinense with 22 samples.

Results

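Of the 16922 genes measured in pepper pericarp, 4 are described here: the acidic β-1,3-glucanase BG2 (LOC107853918, named glucan endo-1,3-beta-glucosidase, acidic), the β-1,3-glucanase BG3 (LOC107878179, glucan endo-1,3-beta-glucosidase 3), the pathogenesis-related protein R major form PRR1 (LOC107851248) and the chitin-binding lectin HEL (LOC107864800, chitin-binding lectin 1-like). They were chosen by gene ID, because their values varied strongly over the same libraries that are described below. RNA-seq was made on fruit pericarp of *Capsicum chinense* at 60 and at 20 days after anthesis (DAA), from greenhouse plants grown in pots with no treatment. The pungent accessions are Hab, a commercial habanero with red ripe fruits, and A101, with yellow ripe fruits. The non-pungent accessions are Biq, a commercial biquinho with red ripe fruits, and A18, with yellow ripe fruits. Each accession was sampled in 3 libraries per stage, apart from Hab at 60 DAA and A18 at 20 DAA with 2 each, which gave 22 libraries in 8 groups. The study states a randomized block design in which a replicate pooled at least 3 fruits of 1 plant. The spread between libraries is then one between plants and may include blocks. Its harvest section gives 3 fruits per accession and stage for RNA-seq, so the pool size is unclear.

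Plants answer fungi with a set of secreted pathogenesis-related (PR) proteins. β-1,3-glucanases form the PR-2 family and cut β-1,3-glucan, which is both a component of fungal walls and, as callose, a polymer that the plant lays down at plasmodesmata, young cell plates and sites of attack. Chitinases cut the chitin of fungal walls, and lectins with hevein domains bind it. PR-R is a thaumatin-like protein of the PR-5 family, first described in tobacco leaves reacting to virus infection. Members of these families are also expressed in healthy flowers and fruits at set stages of development.

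The values are variance-stabilized and lie close to a log2 scale. The mean of each gene over the libraries was subtracted, so that 0 is the gene's own average. A level can be compared between groups for one gene and not between genes. The table gives no read depth, and the errors given come from differences between libraries of a group. A positive difference between stages means a higher value at 60 DAA. In pericarp RNA, fewer cells of a type and less RNA per cell cannot be told apart.

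The 4 genes fell into 2 opposite pairs. BG2 and PRR1 were high at 60 DAA and low at 20 DAA, whereas BG3 and HEL were low at 60 DAA and high at 20 DAA. This held in every accession, and for each of the 4 genes all 11 libraries of one stage lay on one side of all 11 libraries of the other. Because the genes were selected on their variation over these libraries, and most of that variation lies between the stages, the stage differences are given as a description with no test. Between 95.46% (HEL) and 98.87% (BG3) of the sum of squares of each gene lay between stages. In the deposited values, BG2 ranked 5, PRR1 11, BG3 51 and HEL 69 by variance over the 22 libraries, with variances of 21.8, 20.1, 12.5 and 11.5. On either side of rank 60, the flower-specific defensin-like gene LOC107877539 (rank 60) had a variance of 12.014 and cytochrome P450 77A2 (LOC107871386, rank 61) of 12.0, so there was no step in variance there. Over all genes, 15.7% were higher and 21.6% lower at 60 DAA with no overlap between the stages. The share of called genes, defined further on, was 13.2% higher and 21.5% lower.

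**Figure D1:**
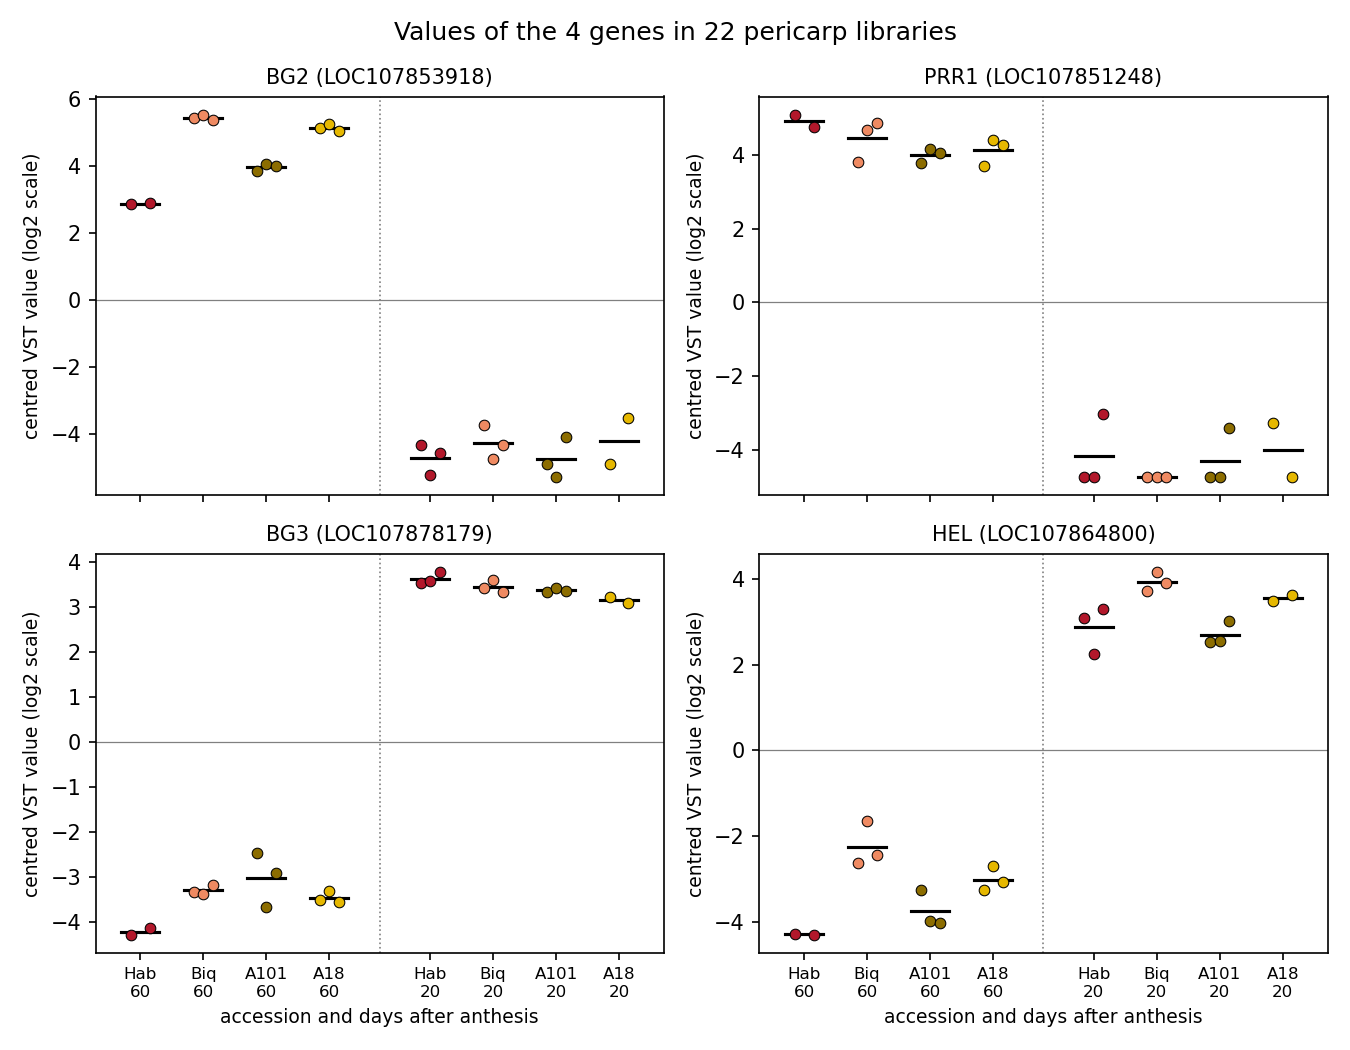
Centred variance-stabilized value (y axis, log2 scale) of BG2, PRR1, BG3 and HEL in each of the 22 libraries (points), by accession and stage (x axis, 60 DAA left of 20 DAA), with a bar for the group mean. BG2 and PRR1 sit above 0 in the 60 DAA libraries and below 0 in the 20 DAA libraries, and BG3 and HEL the other way round.

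BG2 had values of 2.868 and 2.886 in Hab, 3.847, 4.075 and 4.010 in A101, 5.131, 5.244 and 5.037 in A18 and 5.437, 5.534 and 5.367 in Biq at 60 DAA. At 20 DAA the values were −4.308, −5.204 and −4.564 in Hab, −4.881, −5.269 and −4.067 in A101, −4.866 and −3.516 in A18 and −3.721, −4.726 and −4.312 in Biq. The stages were separated by a gap of 6.384 between the lowest 60 DAA and the highest 20 DAA library, and the spread between libraries was wider at 20 DAA. The difference between 60 and 20 DAA was 7.57 ± 0.35 in Hab, 8.72 ± 0.32 in A101, 9.33 ± 0.35 in A18 and 9.70 ± 0.32 in Biq (± standard error), with an average of 8.83 ± 0.17.

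PRR1, the PR-5 type protein, had values of 5.109 and 4.776 in Hab, 3.784, 4.171 and 4.055 in A101, 3.724, 4.424 and 4.286 in A18 and 3.809, 4.699 and 4.887 in Biq at 60 DAA. At 20 DAA it stood at its lowest value, −4.749, in 8 of 11 libraries. These were all 3 libraries of Biq, 2 of Hab (the other at −3.026), 2 of A101 (the other at −3.424) and 1 of A18 (the other at −3.281). Libraries at exactly one lowest value mark the bottom of the scale for a gene, so the size of the PRR1 difference is limited there. The difference between 60 and 20 DAA was 9.12 ± 0.49 in Hab, 8.31 ± 0.44 in A101, 8.16 ± 0.49 in A18 and 9.21 ± 0.44 in Biq, with an average of 8.70 ± 0.23.

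BG3, the second glucanase, ran against BG2. It had values of −4.278 and −4.143 in Hab, −2.464, −3.658 and −2.912 in A101, −3.509, −3.306 and −3.561 in A18 and −3.325, −3.383 and −3.174 in Biq at 60 DAA. At 20 DAA the values were 3.538, 3.582 and 3.778 in Hab, 3.343, 3.429 and 3.365 in A101, 3.231 and 3.092 in A18 and 3.423, 3.596 and 3.337 in Biq. The 20 DAA libraries of all 4 accessions thus lay within a narrow band, and the gap between stages was 5.556. The difference between 60 and 20 DAA was −7.84 ± 0.21 in Hab, −6.39 ± 0.19 in A101, −6.62 ± 0.21 in A18 and −6.75 ± 0.19 in Biq, with an average of −6.90 ± 0.10.

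HEL, the lectin that binds chitin, had values of −4.284 and −4.305 in Hab, −3.258, −3.994 and −4.024 in A101, −3.268, −2.715 and −3.074 in A18 and −2.643, −1.645 and −2.456 in Biq at 60 DAA. At 20 DAA the values were 3.096, 2.257 and 3.309 in Hab, 2.520, 2.554 and 3.017 in A101, 3.483 and 3.629 in A18 and 3.724, 4.162 and 3.916 in Biq. Biq was the highest accession at both stages, and the gap between stages, 3.902, was the smallest of the 4 genes. The difference between 60 and 20 DAA was −7.18 ± 0.31 in Hab, −6.46 ± 0.27 in A101, −6.58 ± 0.31 in A18 and −6.18 ± 0.27 in Biq, with an average of −6.60 ± 0.15.

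**Figure D2:**
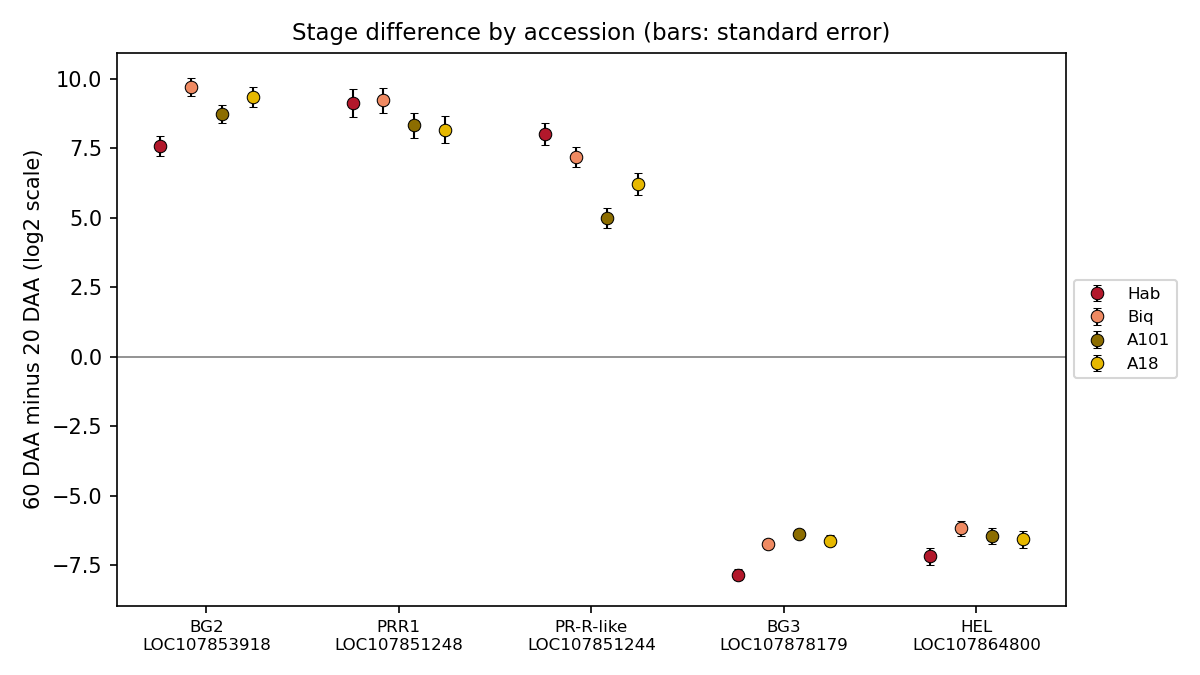
Difference between 60 and 20 DAA (y axis, log2 scale; bars are standard errors from the fit) in each accession for BG2, PRR1, the PR-R-like gene LOC107851244, BG3 and HEL (x axis). The first 3 genes lie between 4.97 and 9.70 and the last 2 between −7.84 and −6.18 in the 4 accessions.

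The accessions were then compared within each stage, a comparison that the choice of the genes rests on only in small part. Differences between accessions common to both stages held 0.191% (BG3) to 3.44% (HEL) of the sum of squares. Stage differences that varied between accessions held a further 0.281% (PRR1) to 0.732% (BG2). The ranks by the stage part alone were 7 for BG2, 10 for PRR1, 44 for BG3 and 66 for HEL. A mean per group was fitted with limma to all genes, and p-values were adjusted over all 16922 genes. The error of a gene was shared by all groups, so a p-value at 60 DAA also carries the spread at 20 DAA. A gene was called when its adjusted p was under 0.05 and the difference, or the range of the accession means, was at least 1. By this rule the accessions differed at 60 DAA in 30.2% of all genes and at 20 DAA in 15.9%, and the stage difference differed between accessions in 34.2%. A call in a single gene is therefore common in this table. Of the 4 genes, BG2, BG3 and HEL were called at 60 DAA and HEL at 20 DAA, while BG2 and BG3 were called for the stage difference.

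At 60 DAA, BG2 averaged 2.88 ± 0.013 in Hab (SD, n = 2), 3.98 ± 0.12 in A101, 5.14 ± 0.10 in A18 and 5.45 ± 0.084 in Biq (SD, n = 3 each). The range over the accessions was 2.57 (limma, adjusted p = 9.57e-06). The order was Biq, A18, A101 and Hab. Biq and A18, next to each other at the top, were not separated (0.31 ± 0.32, adjusted p = 0.46), and after quantile normalization A18 stood above Biq (Biq minus A18, −0.44, adjusted p = 0.167). A101 was lower than A18 by a difference of −1.16 ± 0.32 (adjusted p = 0.00929) and Hab lower than A101 by −1.10 ± 0.35 (adjusted p = 0.0117). The last call was lost when either of the 2 Hab libraries was left out (adjusted p of 0.0592 and 0.0545). Across the table, the share of genes called at 60 DAA was 10.9% between Hab and Biq, 18% between Hab and A101, 14.5% between Hab and A18, 10.9% between Biq and A101, 9.76% between Biq and A18 and 5.42% between A101 and A18.

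At 20 DAA the accession means of BG2 ran from −4.74 ± 0.61 in A101 to −4.19 ± 0.96 in A18, a range of 0.55 that was not called (adjusted p = 0.321). The library of A18 that had −4.866 decided this, since without it the range was 1.22 and was called (adjusted p = 0.0344). The stage difference of BG2 differed between accessions (range 2.13, adjusted p = 0.00405), with the smallest in Hab and the largest in Biq. The pairs of stage differences were not tested.

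HEL followed the same order as the deposited values of BG2 at 60 DAA, with means of −4.30 ± 0.015 in Hab (SD, n = 2), −3.76 ± 0.43 in A101, −3.02 ± 0.28 in A18 and −2.25 ± 0.53 in Biq (SD, n = 3 each). The range was 2.05 (limma, adjusted p = 3.15e-05). No 2 neighbours in this order were called: Biq and A18 differed by 0.77 ± 0.27 (adjusted p = 0.028) and A101 and A18 by −0.74 ± 0.27 (adjusted p = 0.0487), both under the minimum of 1, and Hab and A101 by −0.54 ± 0.31 (adjusted p = 0.142). With array weights, which give each library its own weight, the difference between A101 and A18 was −1.08 and was called (adjusted p = 0.000238). Hab was called lower than Biq (−2.05 ± 0.31) and than A18 (−1.28 ± 0.31), and Biq higher than A101 (1.51 ± 0.27).

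At 20 DAA, HEL averaged 2.89 ± 0.56 in Hab, 2.70 ± 0.28 in A101 and 3.93 ± 0.22 in Biq (SD, n = 3 each), and 3.56 ± 0.10 in A18 (SD, n = 2). The range was 1.24 (limma, adjusted p = 0.00302). Biq and A18 were the upper 2 accessions and Hab and A101 the lower 2, as at 60 DAA. Biq was called higher than A101 (1.24 ± 0.27, adjusted p = 0.00171) and Hab lower than Biq (−1.05 ± 0.27, adjusted p = 0.00674). The second call was lost without the Hab library at 2.257 (−0.73) or without the Biq library at 4.162 (−0.93). At 20 DAA the share of all genes called was 6.58% between Hab and Biq, 7.64% between Hab and A101, 7% between Hab and A18, 7.43% between Biq and A101, 7.02% between Biq and A18 and 3.81% between A101 and A18. The stage difference of HEL had a range of 1.00 and was not called (adjusted p = 0.171). Without the same Hab library the range was 1.32 and was called (adjusted p = 0.0269).

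BG3 averaged −4.21 ± 0.095 in Hab (SD, n = 2), −3.01 ± 0.60 in A101, −3.46 ± 0.14 in A18 and −3.29 ± 0.11 in Biq (SD, n = 3 each) at 60 DAA. Hab was the lowest, and the 3 other accessions were not separated from each other (adjusted p between 0.0813 and 0.514). The range was 1.20 (limma, adjusted p = 0.000418), and Hab was called lower than A101 (−1.20 ± 0.21, adjusted p = 8.24e-05). Both calls rested on the A101 library at −2.464, without which the range was 0.93. Hab differed from Biq by −0.92 ± 0.21 (adjusted p = 0.00153) and from A18 by −0.75 ± 0.21 (adjusted p = 0.00556), under the minimum of 1. At 20 DAA the means ran from 3.16 in A18 to 3.63 in Hab (range 0.47, adjusted p = 0.255). The stage difference of BG3 differed between accessions (range 1.45, adjusted p = 0.00123), with the most negative one in Hab.

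PRR1 was not called in any comparison of the accessions. At 60 DAA it averaged 4.94 ± 0.24 in Hab (SD, n = 2), 4.003 ± 0.199 in A101, 4.14 ± 0.37 in A18 and 4.47 ± 0.58 in Biq (SD, n = 3 each), a range of 0.94 (limma, adjusted p = 0.306). The largest of the 6 pairs, Hab minus A101, was 0.94 ± 0.49 (adjusted p = 0.11). After quantile normalization the same pair turned to −0.18 (adjusted p = 0.773) and the range was 0.48 (adjusted p = 0.736), so no order of the accessions can be read for PRR1. The range was 0.73 at 20 DAA (adjusted p = 0.516), where most libraries shared the lowest value, and 1.05 for the stage difference (adjusted p = 0.324). The standard errors of the pairs, 0.44 and 0.49, were the widest of the 4 genes.

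The 4 accessions contrast in pungency and in colour, with 2 accessions on each side, so these p-values hold for these accessions only. At 60 DAA, BG2 was lower in the pungent than in the non-pungent accessions by a difference of −1.86 ± 0.24 (limma, adjusted p = 4.94e-06). The same direction was seen within the red pair (Hab minus Biq, −2.57 ± 0.35) and within the yellow pair (A101 minus A18, −1.16 ± 0.32). HEL was lower in the pungent accessions by −1.39 ± 0.21 (adjusted p = 2.89e-05), again in the red pair (−2.05) and in the yellow pair (−0.74, under the minimum of 1). Over all genes 3.62% were called for pungency. BG3 (−0.23 ± 0.14, adjusted p = 0.212) and PRR1 (0.17 ± 0.33, adjusted p = 0.738) were not called. Tested against a difference of 1 rather than 0, neither BG2 (adjusted p = 0.0643) nor HEL (adjusted p = 1) passed.

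None of the 4 genes was called between red and yellow accessions at 60 DAA, a contrast called in 8.57% of all genes. The differences were −0.40 ± 0.24 for BG2 (limma, adjusted p = 0.159), −0.52 ± 0.14 for BG3 (adjusted p = 0.0039, under the minimum of 1), 0.63 ± 0.33 for PRR1 (adjusted p = 0.109) and 0.12 ± 0.21 for HEL (adjusted p = 0.647). After quantile normalization the BG2 difference was −1.08 and was called (adjusted p = 7.69e-05), and the PRR1 difference turned to −0.33 (adjusted p = 0.4).

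BG2 and HEL thus moved oppositely between the stages and together within a stage. Over the 22 libraries their correlation was −0.934, and it was 0.78 after the mean of each stage was subtracted (0.879 over the 11 libraries at 60 DAA, 0.557 over the 11 at 20 DAA). These are descriptions without a test, since libraries of one accession are not independent points. The other pairs had lower values within a stage, between −0.261 for BG3 and PRR1 and 0.284 for BG3 and HEL. BG2 and BG3, both β-1,3-glucanases, had −0.975 over all libraries and 0.265 within a stage.

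**Figure D3:**
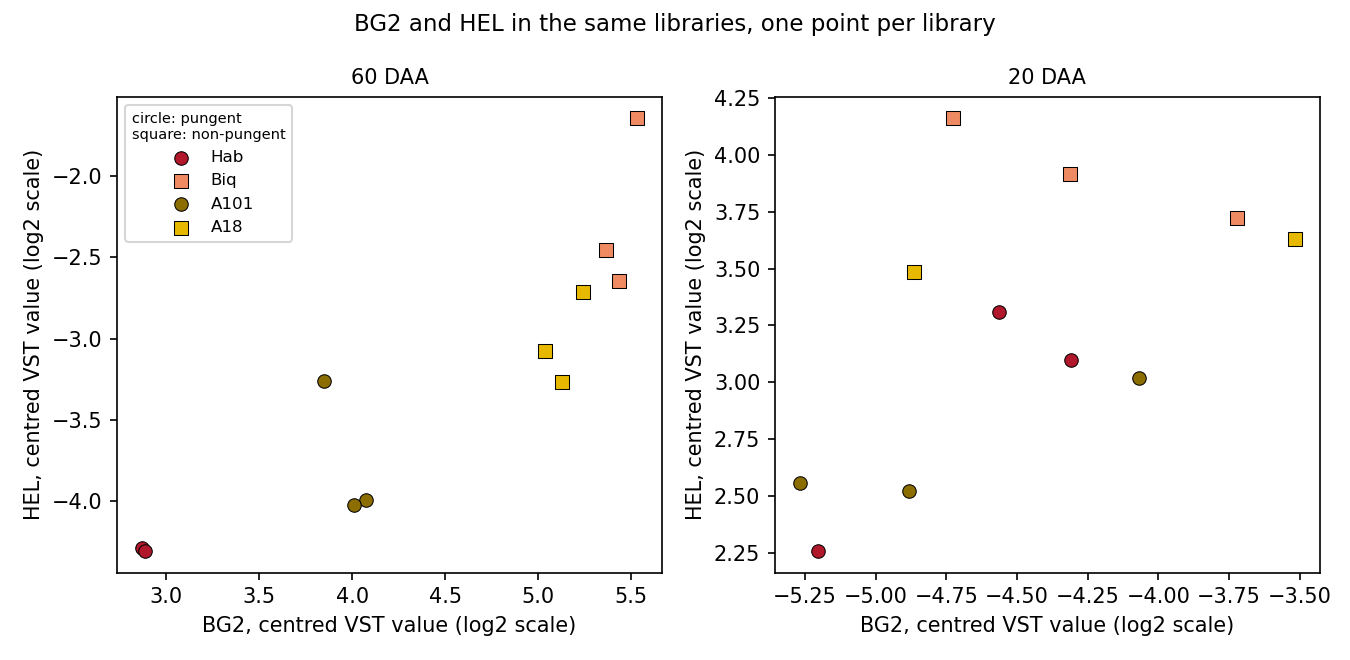
HEL (y axis) against BG2 (x axis), both as centred variance-stabilized values on a log2 scale, in each library at 60 DAA (left) and at 20 DAA (right), with pungent accessions as circles and non-pungent ones as squares. At 60 DAA the Hab libraries lie at the lower left and the Biq libraries at the upper right (r = 0.879 over 11 libraries).

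A second gene with the PR-R name, LOC107851244 (pathogenesis-related protein R major form-like), was also among the most variable genes (rank 49) and shared the direction of PRR1. It had 3.243 and 3.258 in Hab, 2.487, 2.569 and 2.216 in A101, 3.959, 3.815 and 3.951 in A18 and 3.904, 3.757 and 3.565 in Biq at 60 DAA. At 20 DAA it had −3.752, −4.507 and −5.969 in Hab, −2.471, −2.718 and −2.451 in A101, −2.789 and −1.778 in A18 and −3.119, −3.460 and −3.709 in Biq. The difference between 60 and 20 DAA was 7.99 ± 0.40 in Hab, 4.97 ± 0.36 in A101, 6.19 ± 0.40 in A18 and 7.17 ± 0.36 in Biq. The accessions differed at 60 DAA (range 1.48, limma, adjusted p = 0.00399), at 20 DAA (range 2.46, adjusted p = 8.05e-05) and in the stage difference (range 3.02, adjusted p = 0.000454). Hab was below Biq, A101 and A18 at 20 DAA, and A101 was below Biq and A18 at 60 DAA. After quantile normalization the call between Hab and Biq at 20 DAA (−0.69) and that between Biq and A101 at 60 DAA (0.67) were lost. The range of the stage difference was then 1.63 (adjusted p = 0.0111) and that at 20 DAA 1.64 (adjusted p = 0.000847), both still called. The call between Hab and Biq at 20 DAA was also lost without the Hab library at −5.969 (−0.70). The correlation of the 2 genes was 0.951 over the 22 libraries and −0.189 within a stage. Reads of genes with near-identical sequence can be split between them in the quantification, so the separate values of LOC107851248 and LOC107851244 are uncertain to that extent. The same holds for HEL and the 3 other genes named chitin-binding lectin 1-like.

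Values of seed genes moved with the stage and with the accession. Of 9 seed markers (storage, late embryogenesis and similar proteins), 6 were called higher at 60 DAA, against 13.2% of all genes. The other 3 were not called. In 4 of the 9, at least 3 libraries shared the lowest value. The largest difference was that of the glutelin type-B 2-like gene LOC107839931 (4.397 ± 0.14). Their mean centred value per library ran from −0.50 to −0.32 in Hab, 0.90 to 1.75 in A101, 0.76 to 1.12 in Biq and 0.29 to 0.89 in A18 at 60 DAA, and from −0.86 to −0.52 over all 20 DAA libraries. Hab was lowest at 60 DAA in this list as it was in BG2, BG3 and HEL. PRR1 had its highest mean in Hab (4.94), though its accessions were not called different. The list reached its highest value in A101, whereas BG2 and HEL had their highest means in Biq in the deposited values. The part of seed material in these results was not tested. Centred values cannot show whether a marker is absent, so the pericarp label could not be checked that way, and no capsaicinoid gene of the placenta was found by name.

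The families to which the 4 genes belong were followed through 122 other genes in 10 lists matched by gene name. Of these, 24 (19.7%) were called higher and 53 (43.4%) lower at 60 DAA on average over the accessions, against 13.2% and 21.5% of all genes. Both shares of all genes also stand against the stage counts of each list below. Of the 122, 3 were themselves among the 60 genes of largest variance. The median difference was −0.62, against −0.08 for all genes. In every accession 8 were called higher and 39 lower, against 6.7% and 13.5% of all genes. The lower share exceeded the higher share in the whole table too (2238 higher and 3632 lower). After quantile normalization the whole table had 2848 higher and 3013 lower and a median of 0.05, so a shift of that size between the stages depends on the scaling.

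More of the other β-1,3-glucanases shared the direction of BG3 than that of BG2. Of 24 other genes of the family, 1 was called higher and 13 lower, 11 of them in every accession, with a median of −1.34. The largest falls were those of a glucan endo-1,3-beta-glucosidase 11-like gene (LOC107851040, −4.31 ± 0.11), of the A6 type (LOC107839427, −3.99 ± 0.17), a name that comes from an anther gene of *Arabidopsis* and *Brassica*, and of a second 11-like gene (LOC107863464, −3.14 ± 0.08). The single gene called higher was 13-like (LOC107863638, 1.04 ± 0.09), and that call was lost when the A18 library second in column order at 20 DAA was left out. The average differences of the 24 genes ran from −4.31 to 1.04, so that none came near the 8.83 of BG2. The accessions differed at 60 DAA in 5 of the 24, against 30.2% of all genes. They differed most in LOC107850380, which had −0.70 in Hab, −1.43 in A101, −2.80 in A18 and −1.09 in Biq (range 2.09, limma, adjusted p = 1.02e-06).

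Callose synthases make the glucan that the plant's own β-1,3-glucanases cut. Of 9 genes 6 were called lower (4 after quantile normalization), against 21.5% of all genes, and the other 3 were not called. The median was −1.18 and the highest difference −0.03. Callose synthase 3-like (LOC107874014) had the largest fall (−4.32 ± 0.09) and putative callose synthase 8 (LOC107878546) the next (−2.06 ± 0.08). The accessions differed at 60 DAA in 3 of the 9, near the share of 30.2% of all genes. Among the 3 was callose synthase 7-like (LOC107878505) with −1.69 in Hab and −0.06 in A101.

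**Figure D4:**
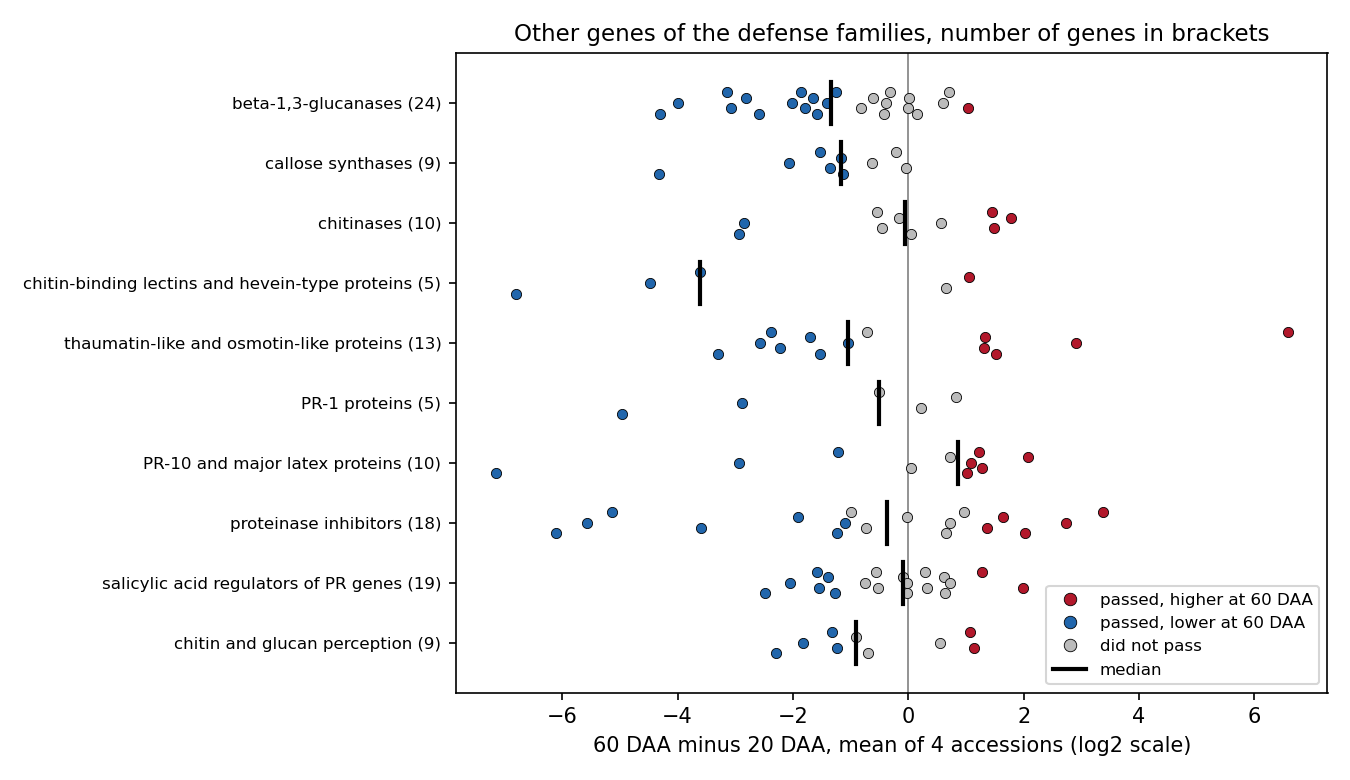
Difference between 60 and 20 DAA averaged over the 4 accessions (x axis, log2 scale) of the 122 other genes of the 10 lists (y axis, number of genes in brackets), with genes called higher in red, called lower in blue and not called in grey, and a black bar for the median of the list. The β-1,3-glucanases run from −4.31 to 1.04, and the gene at 6.58 is the PR-R-like gene LOC107851244.

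Chitinases did not share one direction. Of 10 genes 3 were called higher and 2 lower, and the median of −0.06 lay near that of all genes. Endochitinase A-like (LOC107838731, 1.49 ± 0.06) and the basic 30 kDa endochitinase (LOC107840225, 1.78 ± 0.17) were called higher in every accession. The stages overlapped in the latter. Chitinase-like proteins 2 (LOC107851289, −2.93 ± 0.11) and 1 (LOC107864409, −2.85 ± 0.06) were called lower in every accession. Their relatives in *Arabidopsis* act in cell wall formation rather than on chitin. The accessions differed at 60 DAA in 6 of the 10, against 30.2% of all genes. The acidic 27 kDa endochitinase (LOC107859803) had no average stage difference that was called (0.05 ± 0.18, adjusted p = 0.815), and the accessions ran opposite ways, with stage differences of 2.39 (Hab) and 1.35 (Biq) in the red and −1.38 (A101) and −2.17 (A18) in the yellow accessions (range 4.56, adjusted p = 2.24e-06). At 60 DAA it stood at 2.57 in Hab and 2.82 in Biq, the red accessions, and at −2.16 in A101 and −2.82 in A18, the yellow ones (range 5.64, limma, adjusted p = 3.38e-11).

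Among the hevein-type proteins the 3 other genes named chitin-binding lectin 1-like were called lower on average, 2 of them in every accession. LOC107862238, which also ranked high in variance (57), differed by −6.80 ± 0.15 and LOC107864797 by −4.48 ± 0.12, with 5 libraries at its lowest value. The third, LOC107862241, differed by −3.62 ± 0.10 on average but unequally between accessions (range 5.83, limma, adjusted p = 2.18e-10), with −4.31 in Hab, −0.56 in A101, −6.38 in A18 and −3.23 in Biq. Its 20 DAA means were 2.70 in Hab, −1.22 in A101, 4.58 in A18 and 1.67 in Biq. The PR-4-like gene LOC107840165 was called higher (1.05), a call lost without any 1 of 3 libraries of Biq and A18, and pathogenesis-related protein P2 (LOC107879775) was not called (0.66 ± 0.16, adjusted p = 0.00109). At 20 DAA, LOC107864797 had lower means in the pungent Hab (1.91) and A101 (1.21) than in the non-pungent Biq (3.31) and A18 (2.56), as HEL had. LOC107862238 had its lowest 20 DAA mean in Biq (2.22), unlike HEL.

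The thaumatin-like and osmotin-like proteins, the family of PRR1, had 5 of 13 genes called higher and 7 lower, with a median of −1.05. The highest was the PR-R-like gene given above (6.58 ± 0.19), which was itself picked out by its variance. Osmotin-like protein OSML13 (LOC107865671, 2.90 ± 0.11), whose name comes from a wild potato gene, was the other gene called higher in every accession. Pathogenesis-related protein 5-like (LOC107859872, −3.29 ± 0.10) and an osmotin-like protein (LOC107853923, −2.57 ± 0.12, with 8 libraries at its lowest value) fell most. The 2 genes named OSML15 (LOC107865680 and LOC107865691) were called higher by 1.31 ± 0.18 and 1.52 ± 0.14.

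PR-1 proteins are secreted proteins used as markers of the salicylic acid response in leaves. Of 5 genes 2 were called lower, against 21.5% of all genes, and the other 3 were not called. Of those 3, 1 was called higher after quantile normalization. The PR-1-like gene LOC107877494 fell by 4.97 on the log2 scale with 8 libraries at its lowest value, and the STS14 gene (LOC107858694) differed by −2.88 ± 0.09. The basic PR-1 form LOC107840154 was not called on average (0.21 ± 0.12, adjusted p = 0.111) and had −1.23 in Hab, 0.04 in A101, 0.74 in A18 and 0.86 in Biq at 60 DAA (range 2.09, limma, adjusted p = 3.16e-06). Hab was the lowest accession in this gene too.

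The PR-10 and major latex proteins are small proteins of the cytoplasm. Of 10 genes 5 were called higher and 3 lower, against 13.2% and 21.5% of all genes, and the median was 0.87. A gene of the MLP-like type (LOC107848093), also among the most variable genes (rank 36), had the lowest difference of all 122 genes (−7.16 ± 0.18). The PR gene STH-2-like LOC107864570 was called higher (2.07 ± 0.14) and the gene LOC107864567 of the same name lower (−2.94 ± 0.19). MLP-like protein 34 (LOC107872430) had 3.95 in A101 at 60 DAA, against −0.58 in Hab, −0.78 in Biq and −0.83 in A18 (range 4.78, limma, adjusted p = 1.81e-14).

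Proteinase inhibitors block digestive enzymes of insects and are induced by wounding in leaves of Solanaceae. Of 18 genes 5 were called higher and 7 lower, against 13.2% and 21.5% of all genes. The stage difference differed between accessions in 16 of the 18, against 34.2% of all genes. The PSI-1.2 inhibitors of pepper were called higher (LOC107855815, 3.38 ± 0.07, and LOC107855896, 2.73 ± 0.12), with 10 and 9 libraries at the lowest value. The wound-induced proteinase inhibitor 2-like gene LOC107862766 was called lower (−6.11 ± 0.22). At 60 DAA it had −5.66 in Hab, −4.003 in A101, −2.15 in A18 and −0.54 in Biq (range 5.12, limma, adjusted p = 6.75e-08), which is the order of HEL and, without quantile normalization, of BG2. Its neighbour in the list LOC107862768 had the same order, with −4.70 in Hab, −3.60 in A101, −1.50 in A18 and −0.44 in Biq. The proteinase inhibitor type-2-like gene LOC107862771 had −1.62 in Hab, −1.78 in A101, 2.04 in A18 and 2.79 in Biq at 60 DAA (range 4.56, adjusted p = 1.1e-13), with the lower values in the pungent Hab and A101.

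Among 19 regulators linked to salicylic acid and PR genes, 2 were called higher and 6 lower, with a median of −0.09, close to that of all genes. The list held NPR and TGA proteins, EDS1, PAD4 and calmodulin-binding proteins, so it is not limited to steps between salicylic acid and PR genes. The lower calls included EDS1-like (LOC107875924), PAD4 (LOC107858435) and calmodulin-binding proteins as well as TGA factors. Of the TGA transcription factors, TGA6-like (LOC107844967, 1.99 ± 0.07, with 9 libraries at its lowest value) and TGA-2.1 (LOC107843777, 1.28 ± 0.08) were called higher on average. Neither was called higher in every accession. TGA7-like (LOC107867576, −2.48 ± 0.06) and TGA-1A (LOC107870190, −2.06 ± 0.07) were called lower. TGA6-like had 3.41 in A101 at 60 DAA, against 0.63 in Hab, 0.35 in Biq and −0.46 in A18 (range 3.87, limma, adjusted p = 3.23e-14). Some LysM proteins and chitin receptor kinases sense chitin at the cell surface. Of 9 genes with such names 2 were called higher and 4 lower, against 13.2% and 21.5% of all genes. The chitin elicitor receptor kinase 1-like gene (LOC107878173) was called higher (1.15 ± 0.06) and a LysM receptor-like kinase 3 gene (LOC107861784) lower (−2.29 ± 0.05).

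The genes whose pattern was most like that of each of the 4 were found by Pearson's r over the 22 libraries, given without a test because 2 stages set most of it. For BG2 these were a translocator protein homolog (LOC107864017, r = 0.9933), xyloglucan endotransglucosylase/hydrolase protein 28 (LOC107870538, 0.9912) and an alpha-amylase-like gene (LOC107867838, 0.9909). For PRR1 they were an uncharacterized gene (LOC107852958, 0.9935), la-related protein 6A (LOC107859108, 0.9935) and the ethylene-responsive transcription factor ABR1-like (LOC107867626, 0.9924). For BG3 they were the galactan synthase GALS3-like (LOC107859735, 0.9977), fasciclin-like arabinogalactan protein 2 (LOC107878109, 0.9964), a cell surface glycoprotein, and CONSTANS-LIKE 9 (LOC107863128, 0.9962). For HEL they were the monocopper oxidase-like protein SKU5 (LOC107867317, 0.9889), 4-coumarate-CoA ligase-like 9 (LOC107868494, 0.9877) and an ankyrin repeat gene (LOC107860738, 0.9876).

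After the mean of each stage was subtracted, other genes came first. BG2 was closest to a chloroplast iron superoxide dismutase (LOC107873354, r = 0.9306), an uncharacterized gene (LOC107872242, 0.8625) and adenylyl-sulfate kinase 3 (LOC107860189, 0.8606), an enzyme of sulfate assimilation. HEL was closest to the wound-induced proteinase inhibitor LOC107862766 (0.9048), to the same adenylyl-sulfate kinase (0.904) and to an ACR12-like gene (LOC107850908, 0.8821). BG3 was closest to a STRUBBELIG-receptor family 3-like gene (LOC107842312, 0.8748), an importin-5-like gene (LOC107838693, 0.874) and an uncharacterized gene (LOC107842867, 0.8663). For PRR1 the closest genes reached lower values, 0.6845 for an ABC transporter G family member 7 (LOC107847910), 0.6764 for LOC107848955 and 0.6477 for LOC107847985, a pentatricopeptide repeat gene.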

How the data were processed

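The authors used fastp 0.23.1 for trimming, Salmon 1.6.0 for quantification on transcripts of the related species *C. annuum* (Zunla-1), and DESeq2 1.36.0 in R 4.2.0 for gene values. The deposited values are their variance-stabilized counts, close to log2, centred per gene (the largest absolute gene mean is 0.00036), so depth is unknown and no interval needing it is given. Column headers name accession and stage but no replicate. All columns of values were used (0 left out). Libraries called a, b and c follow column order.

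A mean per group was fitted with limma 3.58.1 in R 4.3.3 (14 residual and 4.51 prior degrees of freedom) and p-values were adjusted by the Benjamini-Hochberg method. Tests on simulated data recovered the changes put in. Alternatives were quantile normalization, median subtraction, array weights, robust eBayes, no minimum difference, treat, leaving out genes whose lowest value is shared by at least 3 libraries, and leaving out each library. Figures used Python 3.11.15 and matplotlib 3.10.9.

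The genes named are the 4 genes and LOC107851244, from each list up to 3 called genes with the largest rise and fall without overlap and 2 with the largest range at 60 DAA, and the 3 most similar genes by each measure. LOC107840165, LOC107840225, LOC107862241, LOC107878318, LOC107864568 and the genes next to variance rank 60 were added after their values were seen. Lists were matched by words in names, with 4 false matches removed from the names alone. The members and lists were chosen with earlier results of these data known. No sequence or coordinate is given.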

Additional observations from a re-analysis of the deposited data

Results flagged for a closer look

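The results below stand here because a test found that the stage difference varied between accessions. For the 4 genes these were BG2 (LOC107853918, range over accessions 2.13, limma, adjusted p = 0.00405) and BG3 (LOC107878179, 1.453, adjusted p = 0.00123), both with Hab at one end of the order. The PR-R-like gene LOC107851244 had a range of 3.023 (adjusted p = 0.000454), with 7.99 in Hab and 4.97 in A101. After quantile normalization this range was 1.63 (adjusted p = 0.0111), with 7.37 in Hab and 5.74 in A101.

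Among the other listed genes, those called with a range of at least 3 are given. The chitin-binding lectin 1-like gene LOC107862241 had the widest, 5.828 (limma, adjusted p = 2.18e-10), with −0.56 in A101 and −6.38 in A18. The acidic 27 kDa endochitinase LOC107859803 had 4.562 (limma, adjusted p = 2.24e-06), with opposite signs in red and yellow accessions. Endochitinase 4 (LOC107878318) had 3.248 (adjusted p = 3.88e-06), with 1.63 in Hab and −1.62 in A18, and the STH-21-like PR gene LOC107864568 had 3.396 (adjusted p = 0.00279), with −2.16 in A101 and 1.23 in A18. MLP-like protein 34 (LOC107872430) had 3.274 (adjusted p = 9.73e-09) and TGA6-like (LOC107844967) 3.962 (adjusted p = 3.78e-11), both with the largest difference in A101 (3.22 and 4.46). The proteinase inhibitor PSI-1.2 (LOC107855896) had 3.536 (adjusted p = 2.8e-07), with 4.69 in Biq and 1.15 in A18. The seed marker glutelin type-B 2-like (LOC107839931) had 4.262 (adjusted p = 4.35e-07), with 1.68 in Hab and 5.94 in A18. Over all genes, 34.2% were called in this test. The groups held 2 or 3 libraries, too few to look for single libraries far from the rest.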

How the results depend on the processing

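No called difference changed sign under the alternatives run. Among differences of these genes that were not called in either fit, 31 values of 18 differences changed sign. Of these, 11 did so under quantile normalization, 2 with array weights and 18 with a library left out. No paired analysis was possible because the columns carry no replicate number, although the study used a randomized block design and numbers its replicates elsewhere. Quantile normalization moved the stage difference to 7.13 (Hab), 9.35 (A101) and 10.17 (A18) in BG2, to −7.48 (Hab) in BG3, to 8.49 (Hab), 8.94 (A101) and 8.88 (A18) in PRR1, and to −6.78 (Hab) and −6.19 (A18) in HEL. It also moved the BG2 difference between red and yellow to −1.08 and the count of listed genes higher in every accession to 15. With no minimum difference, 39 listed genes were higher, 23 in every accession, 89 differed between accessions at 60 DAA and 77 at 20 DAA, and the BG3 difference between red and yellow passed (−0.52). Without genes sharing a lowest value, 5 were higher in every accession. Tested against a difference of 1, 13 were higher and 3 in every accession, and the pungency differences of BG2 (−1.86) and HEL (−1.39) did not pass. Leaving out a library gave ranges of 8.65 to 10.003 for the stage difference of BG2 in A18, 7.43 to 8.89 for PRR1 in A18 and −6.66 to −6.07 for BG3 in A101. It gave 0.50 to 1.22 for the range of BG2 at 20 DAA, 0.93 to 1.52 for the range of BG3 at 60 DAA and 0.73 to 1.32 for the stage difference of HEL between accessions. The cause of these shifts was not tested. Of all alternative values (the differences of the 5 genes and the counts), 3741 kept their call or size, 50 moved, 29 lost a call and 18 gained one. Size was taken as kept within a tolerance. A count could change by up to a set factor, and a stage difference by less than the gene's spread within groups. The callose synthases called lower, 6 in the main fit and 4 after quantile normalization, thus stand among those kept.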
